A study of Mus musculus with 4 samples.

Results

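Transcript levels of 10 genes of bone morphogenetic protein (BMP) and transforming growth factor beta (TGF-beta) signalling were compared between mouse muscle stem cells with a labelled conditional knockout of the nuclear corepressor Hairless (Hr) and control cells. The genes are the ligand Bmp4, the receptors Bmpr1a, Tgfbr1, Tgfbr2 and Tgfbr3, the inhibitory Smads Smad6 and Smad7, and the target genes Id1, Id2 and Id3. They were found by symbol, and each occupied 1 of the 11603 rows of the expression table. The cells came from hindlimb muscle of male C57BL/6 mice of 4 to 5 months and were sorted as VCAM1-positive and negative for CD31, CD45 and Sca1. There were 2 libraries of the genotype labelled conditional Hairless knockout and 2 labelled control, and full-length cDNA was made from 10 ng of RNA. The sources used here give neither the allele nor the Cre driver nor any treatment that starts the deletion, and no label says whether the libraries of a group came from separate animals. The p-values therefore measure only the spread between these libraries, which may be technical.

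BMP and TGF-beta ligands bind pairs of type I and type II serine/threonine kinase receptors, which phosphorylate receptor-activated Smads. BMP receptors act mainly through Smad1, Smad5 and Smad9, TGF-beta and activin receptors mainly through Smad2 and Smad3, and both branches share Smad4. Id genes are classical BMP targets. Id proteins have a helix-loop-helix domain but no DNA-binding region, and they sequester the E proteins with which MyoD and myogenin bind DNA. In muscle, BMP signalling is known to delay differentiation of stem cell progeny and TGF-beta signalling to restrain their fusion.

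The libraries held 34101213 and 21757211 reads on listed genes in knockout 1 and 2, against 26990809 and 22577330 reads in control 1 and 2. Values are RPKM, reads per kilobase of exon and per 1000000 reads of the library size the authors used. These sizes were 75.7% and 75.5% of the listed reads in knockout 1 and 2, against 85.9% and 92.4% in control 1 and 2. Changes were tested with limma on log2(RPKM + 0.5) over all 11603 genes with Benjamini-Hochberg adjustment and a threshold of 0.05, and log2 fold changes on this scale understate the change of genes with low values. Hr, the targeted gene, had 7.15 and 7.9 RPKM in the knockout libraries, against 9.28 and 8.94 RPKM in the control libraries, with a limma adjusted p of 0.431. The transcript was thus not lost, a sum over all exons cannot show whether a part was deleted, and every direction below rests on the labels. All 8 muscle stem cell markers were measured, 5 with overlapping groups, among them Pax7 at 8.23 to 13.1 RPKM over the 4 libraries. Of the other 3, Sdc4 (syndecan-4) had 3031 and 3260 RPKM in knockout, against 2121 and 1582 RPKM in control, Itga7 (integrin alpha 7) had 61.9 and 50 RPKM in knockout, against 90.8 and 118 RPKM in control, and Myf5 was wholly higher in knockout. Among all genes the groups of 51.2% did not overlap. The authors' deposited table called Sdc4 higher (adjusted p of 0.0028) and Itga7 lower (adjusted p of 0.00849). Myofibre markers summed to 64.1 and 53 RPKM over 7 measured genes in the knockout libraries, against 178 and 713 RPKM in the control libraries, so control 2 stood apart.

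Each of the 3 Id genes had higher values in both libraries of the knockout than in any of the control, by 1.76-fold to 2.04-fold in the group means. Bmp4 was 1.63-fold higher, whereas the receptors and inhibitory Smads differed between the group means by 1.31-fold at most, in either direction. The authors' deposited table called 4 of the 10 genes at an adjusted p under 0.05 (Id1, Id2, Id3 and Bmp4), all of them higher in knockout. Among all genes it called 7.84%, 3.59% higher and 4.26% lower. limma called 0 of the 10 genes at an adjusted p under 0.05, against 0.00862% of all genes (1 gene, Col1a1), and limma-voom also called 0 of the 10. The same 4 genes had an unadjusted limma p under 0.05, all higher, where 10.3% of all genes were higher and 7.69% lower at that p. Groups did not overlap for 9 of the 10 genes, 7 higher and 2 lower in knockout, where the groups of 51.2% of all genes did not overlap, 25.0% higher and 26.2% lower. Scaling to the sum of listed reads instead gave all genes a median log2 fold change of -0.20, in place of -0.01. The counts among the 10 genes were then 4 higher and 3 lower. Shares of all genes at that scaling were not computed, so these counts cannot be set against the shares above.

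**Figure D1:**
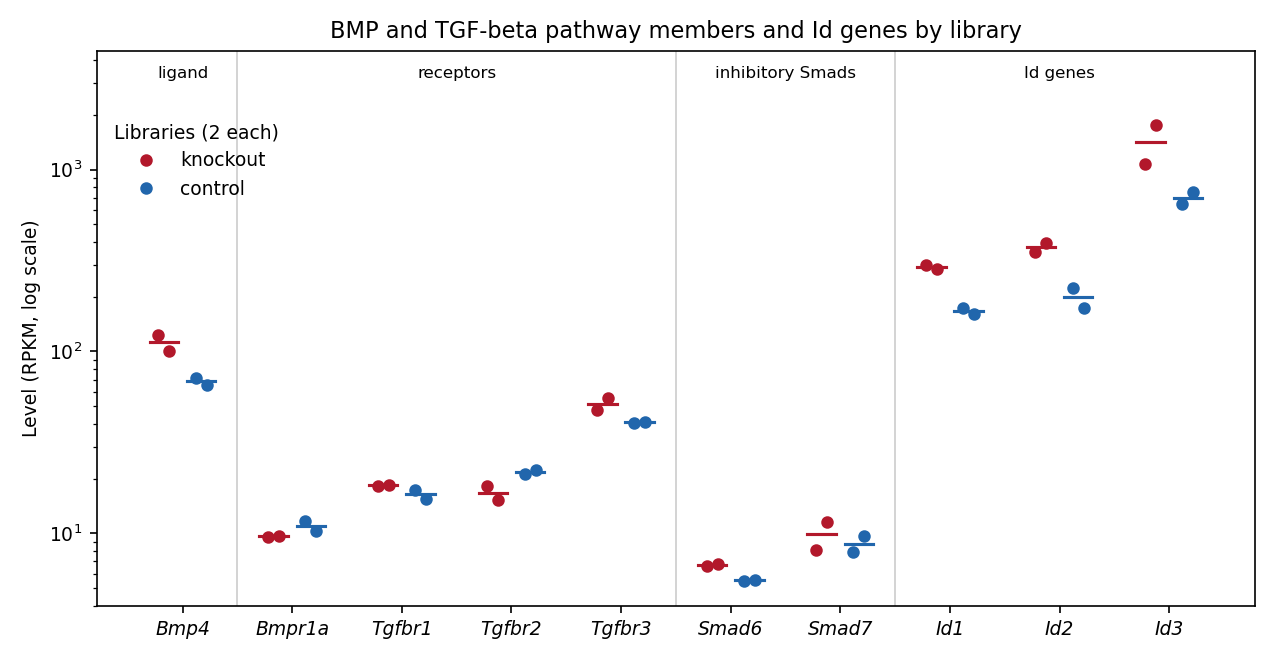
Level of each gene in every library, in RPKM on a log scale. Points are libraries, with the 2 knockout libraries left of the 2 control libraries for each gene, and short lines are group means. The Id genes lie highest, Bmp4 next, and the knockout points of Id1, Id2, Id3 and Bmp4 lie above their control points.

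By mean level in RPKM the order was Id3, Id2, Id1, Bmp4, Tgfbr3, Tgfbr2, Tgfbr1, Bmpr1a, Smad7 and Smad6. Over the 4 libraries the ranges of neighbours overlapped for Id2 and Id1, for Tgfbr2 and Tgfbr1 and for Bmpr1a and Smad7, and they were apart for the other neighbours.

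Id3 (Entrez gene 15903, chromosome 4, 136143497 to 136145755, plus strand, mm10) was the most abundant of the 10 genes. It had 1078 and 1766 RPKM in knockout 1 and 2, against 644 and 750.1 RPKM in control 1 and 2. Both knockout values were higher than both control values, but the knockout libraries differed from each other by more than the control libraries did. The means were 1422 ± 487 RPKM in knockout and 697 ± 74.7 RPKM in control (SD, n = 2 each), 2.04-fold higher, with a log2 fold change of 0.99 ± 0.27 (SE) and an adjusted p of 0.189 by limma. The authors' deposited table gave Id3 an adjusted p of 0.00208. By mean level Id3 ranked 57 among the 11603 genes.

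Id2 (Entrez gene 15902, chromosome 12, 25093801 to 25096092, minus strand) had 353 and 397 RPKM in the knockout libraries, against 223 and 173 RPKM in the control libraries. The groups did not overlap, with knockout 2 the highest and control 2 the lowest library. The log2 fold change was 0.93 ± 0.18 (SE), at an adjusted p of 0.153 by limma, and the adjusted p in the authors' deposited table was 0.00114. Id2 encodes the family member that is also known to bind retinoblastoma family proteins.

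Id1 (Entrez gene 15901, chromosome 2, 152736251 to 152737410, plus strand), the most widely used transcriptional readout of BMP receptor activity, had 299.7 and 285 RPKM in knockout, against 173 and 159.7 RPKM in control. Its replicates lay closest together among the Id genes, with means of 292 ± 10.3 and 166 ± 9.09 RPKM (SD, n = 2 each). The log2 fold change was 0.81 ± 0.14 (SE), at an adjusted p of 0.137 by limma, and the authors' deposited table gave an adjusted p of 0.00796. Single-gene limma intervals (95%, not adjusted over all genes) ran from 0.47 to 1.16 for Id1, from 0.48 to 1.38 for Id2 and from 0.32 to 1.66 for Id3.

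The log2 fold changes of the Id genes stood near the top of all genes. Only 1.07% of genes had a larger log2 fold change than Id3, 1.35% a larger one than Id2 and 2.21% a larger one than Id1. Id1, Id2 and Id3 together took 2064 and 3019 of every 1000000 listed reads in knockout 1 and 2, against 1407 and 1616 in control 1 and 2. The mix within the family varied between libraries of a group as well: the RPKM ratio of Id3 to Id1 was 3.6 and 6.19 in knockout and 3.73 and 4.7 in control. Id4, the remaining family member and named after its values were seen, had 31.5 and 39.9 RPKM in knockout, against 24.1 and 22.3 RPKM in control, with a limma adjusted p of 0.19 and an adjusted p of 0.132 in the authors' deposited table.

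When any 1 library was left out, the log2 fold change stayed between 0.76 and 0.87 for Id1. It stayed between 0.75 and 1.12 for Id2 and between 0.63 and 1.34 for Id3. Scaled by the reads listed, the log2 fold changes were lower, at 0.58 for Id1, 0.69 for Id2 and 0.75 for Id3. Their limma adjusted p values at that scaling were 0.15, 0.151 and 0.19. Id genes are abundant in endothelial cells, whose 8 markers were all measured. These markers summed to 47.3 and 72.4 RPKM in the knockout libraries, against 67.2 and 87.2 RPKM in the control libraries, with 1 marker wholly higher and 1 wholly lower in knockout and the other 6 overlapping. Mural cell markers, 8 of 8 measured, summed to 55.5 and 86.1 RPKM in knockout, against 64.6 and 75.9 RPKM in control. Fibro-adipogenic markers, 6 of 8 measured, summed to 493 and 341 RPKM in knockout, against 295 and 253 RPKM in control. Of these markers 2 were wholly higher in knockout, 0 wholly lower and 4 overlapping. Among all genes 25.0% were wholly higher and 26.2% wholly lower. Dpt alone had 323 and 124 RPKM in knockout, against 131 and 117 RPKM in control. Ly6a, which encodes the sort antigen Sca1, is on that list and had 77.4 and 80.7 RPKM in knockout, against 47.9 and 49.5 RPKM in control. Lum and Smoc2, also on it, had lower means in knockout (6.64 and 4.7 RPKM) than in control (9.23 and 5.43 RPKM). Blood cell markers, 6 of 8 measured, summed to 12.2 and 19.1 RPKM in knockout, against 16.9 and 16.6 RPKM in control. Their part in the differences was not tested, and in bulk RNA fewer cells of a type and less RNA per cell cannot be told apart.

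**Figure D2:**
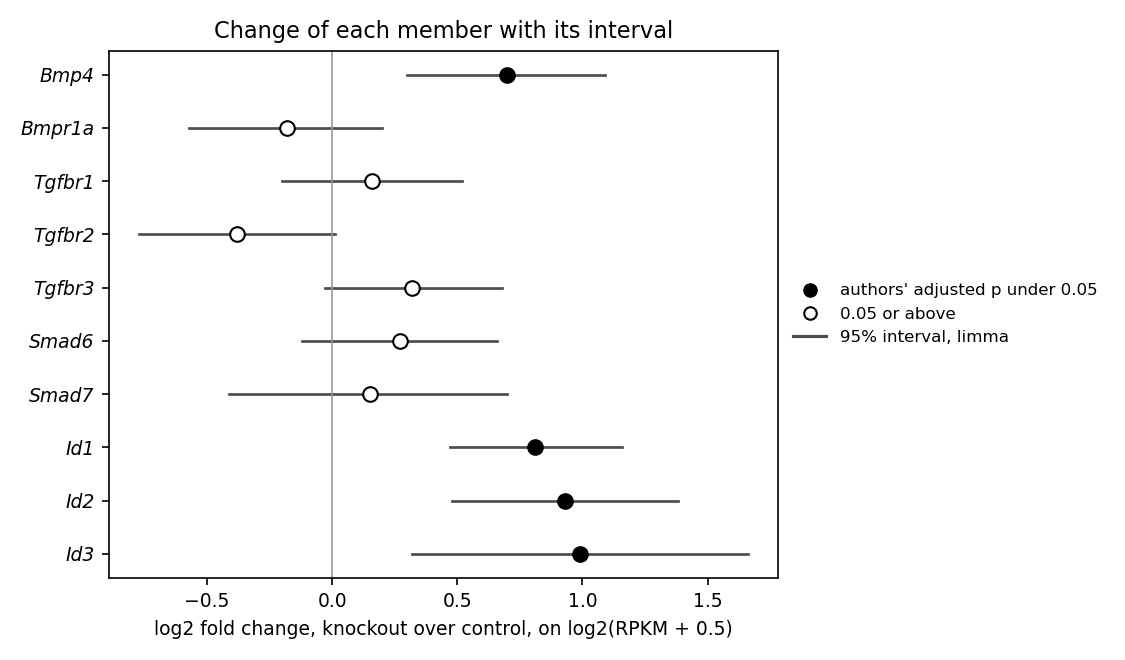
Log2 fold change of each gene, knockout over control, with its 95% limma interval for that gene alone. Filled points were called at 0.05 in the authors' deposited table. The intervals of Id1, Id2, Id3 and Bmp4 lie above 0, and those of the other 6 genes include 0.

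Promoter sequences are shown for Id2 and Bmp4, both with higher knockout values, and for Smad6, another BMP target whose values differed less. RefSeq start sites on GRCm38.p6 matched 7 of the 10 genes, and each line gives the 250 bases before the start, 5′ to 3′ on the gene's strand. The RefSeq window of Id3 lies inside the first exon of the deposited gene model, which starts further upstream, so it is not shown. Capitals mark GTCT, the short Smad-binding sequence, on either strand (AGAC on the other), and GGCGCC, a palindromic GC-rich sequence bound by BMP Smads. The regions are chr12:25096093-25096342 for Id2, chr14:46390670-46390919 for Bmp4 and chr9:64022060-64022309 for Smad6.
Id2: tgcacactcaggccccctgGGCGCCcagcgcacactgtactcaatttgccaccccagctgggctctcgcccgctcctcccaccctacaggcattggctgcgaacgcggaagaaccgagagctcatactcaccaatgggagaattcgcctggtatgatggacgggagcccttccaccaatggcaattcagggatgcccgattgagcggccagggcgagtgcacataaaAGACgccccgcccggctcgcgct
Bmp4: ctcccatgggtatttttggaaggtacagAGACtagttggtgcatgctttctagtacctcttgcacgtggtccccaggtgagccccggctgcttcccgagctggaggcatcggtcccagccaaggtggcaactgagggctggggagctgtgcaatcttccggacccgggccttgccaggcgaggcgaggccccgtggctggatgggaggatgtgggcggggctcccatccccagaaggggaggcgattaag
Smad6: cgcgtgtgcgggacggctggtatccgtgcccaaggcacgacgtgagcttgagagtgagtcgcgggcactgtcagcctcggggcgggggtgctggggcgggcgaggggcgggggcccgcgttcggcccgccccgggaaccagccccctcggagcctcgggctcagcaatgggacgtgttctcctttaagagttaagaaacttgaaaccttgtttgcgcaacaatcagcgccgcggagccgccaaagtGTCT
GTCT occurred 1 time each in the windows of Id2, Bmp4 and Smad6. Of all 32851 promoter windows of this length, 82.9% held GTCT on either strand. GGCGCC occurred 1 time in the Id2 window, 231 bases before the start, in 0 of the other windows shown, and in 9.59% of all windows. Windows of Bmpr1a and of the more upstream Tgfbr1 start, which are not shown, also held GGCGCC, 198 and 233 bases before the start. The Bmpr1a window lies inside the span of the deposited gene model, and the window of the other Tgfbr1 start held 0. The E box CANNTG, bound by MyoD and E protein dimers, occurred 3 times in the Bmp4 window and 1 time in the Id2 window, and in 66.2% of all windows. None of these motifs overlapped another in the windows shown. The matches describe the letters in these windows and do not show that a factor binds there.

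Bmp4 (Entrez gene 12159, chromosome 14, 46383520 to 46390669, minus strand) encodes a secreted ligand of the BMP type I receptors. It had 123 and 101 RPKM in the knockout libraries, against 71.7 and 65.3 RPKM in the control libraries. Both knockout values were above both control values, with means of 112 ± 15.9 and 68.5 ± 4.53 RPKM (SD, n = 2 each). The log2 fold change was 0.70 ± 0.16 (SE), at an adjusted p of 0.172 by limma, and the adjusted p in the authors' deposited table was 0.0421. Scaled by the reads listed, the log2 fold change was 0.46. Gm15217, on the opposite strand, shares 89 exon bases with Bmp4 in GENCODE M21. The sources used here do not say whether reads were counted by strand, so reads from that stretch cannot be told apart.

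None of the other ligands of the BMP and GDF group was called. Of 11 listed ligands 5 were measured, with 0 called by limma or in the authors' deposited table and a median log2 fold change of 0.08, beside -0.01 for all genes. Bmp6, an iron-regulated BMP, had 91.5 and 79.7 RPKM in knockout, against 74.7 and 87 RPKM in control, and Gdf15, a stress-induced distant family member, had 32.3 and 48.8 RPKM in knockout, against 39.9 and 29.7 RPKM in control. For both genes the groups overlapped. In level, Bmp4 exceeded Bmp6 in both knockout libraries, and Bmp6 exceeded Bmp4 in both control libraries, in RPKM.

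Among the receptors, Tgfbr3 (Entrez gene 21814, chromosome 5, 107106570 to 107289629, minus strand), the betaglycan co-receptor that presents TGF-beta2 to the signalling receptors, was the most abundant. It had 47.5 and 55.1 RPKM in knockout, against 40.6 and 41 RPKM in control. The knockout values lay above the control values, by a log2 fold change of 0.32 (95% interval -0.03 to 0.68, limma adjusted p of 0.307) that was 0.09 when scaled by the reads listed. Gm43422 shares 297 exon bases with it on the same strand.

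Tgfbr2 (Entrez gene 21813, chromosome 9, 116087698 to 116175363, minus strand), the type II receptor that binds TGF-beta ligands directly, had 18.3 and 15.2 RPKM in knockout, against 21.3 and 22.4 RPKM in control. It had the most negative change of the 10 genes, with both knockout values below both control values and a log2 fold change of -0.38 (95% interval -0.77 to 0.01, limma adjusted p of 0.285). This change was -0.61 when scaled by the reads listed, -0.51 without knockout 1 and -0.25 without knockout 2. Tgfbr1 (Entrez gene 21812, chromosome 4, 47353222 to 47414931, plus strand), its type I partner ALK5, had 18.3 and 18.5 RPKM in knockout, against 17.4 and 15.4 RPKM in control. Its log2 fold change was 0.16 (95% interval -0.20 to 0.52, limma adjusted p of 0.588), and scaling to the sum of listed reads turned it to -0.07. It was 0.25 without control 1 and 0.08 without control 2. In level, the pair was even at 18.3 RPKM in knockout 1, Tgfbr2 was below Tgfbr1 in knockout 2, and it was above Tgfbr1 in both control libraries.

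Bmpr1a (Entrez gene 12166, chromosome 14, 34410734 to 34503341, minus strand), the BMP type I receptor ALK3, was the least abundant of the 4 receptors. It had 9.58 and 9.69 RPKM in knockout, against 11.7 and 10.3 RPKM in control. The groups were close but did not overlap, with a log2 fold change of -0.18 (95% interval -0.57 to 0.20, limma adjusted p of 0.577). It was -0.40 when scaled by the reads listed, -0.09 without control 1 and -0.27 without control 2. The antisense gene Gm17110 shares 290 of its exon bases.

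The inhibitory Smads, which are induced by the pathway and block its receptors, had the lowest mean levels of the 10 genes in RPKM. Smad6 (Entrez gene 17130, chromosome 9, 63953076 to 64022059, minus strand), which acts mainly on BMP receptors, had 6.63 and 6.82 RPKM in knockout, against 5.45 and 5.56 RPKM in control, from 359 to 549 reads in a library. Its replicates lay close together and the groups did not overlap, with a log2 fold change of 0.27 (95% interval -0.12 to 0.66, limma adjusted p of 0.424) that was 0.05 when scaled by the reads listed. Smad7 (Entrez gene 17131, chromosome 18, 75367529 to 75395935, plus strand), which acts on TGF-beta and BMP receptors, had 8.1 and 11.6 RPKM in knockout, against 7.88 and 9.61 RPKM in control. It was the 1 gene of the 10 whose groups overlapped, with a log2 fold change of 0.15 (95% interval -0.41 to 0.70, limma adjusted p of 0.764) that was -0.08 when scaled by the reads listed and ran from -0.10 without knockout 2 to 0.40 without knockout 1.

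**Figure D3:**
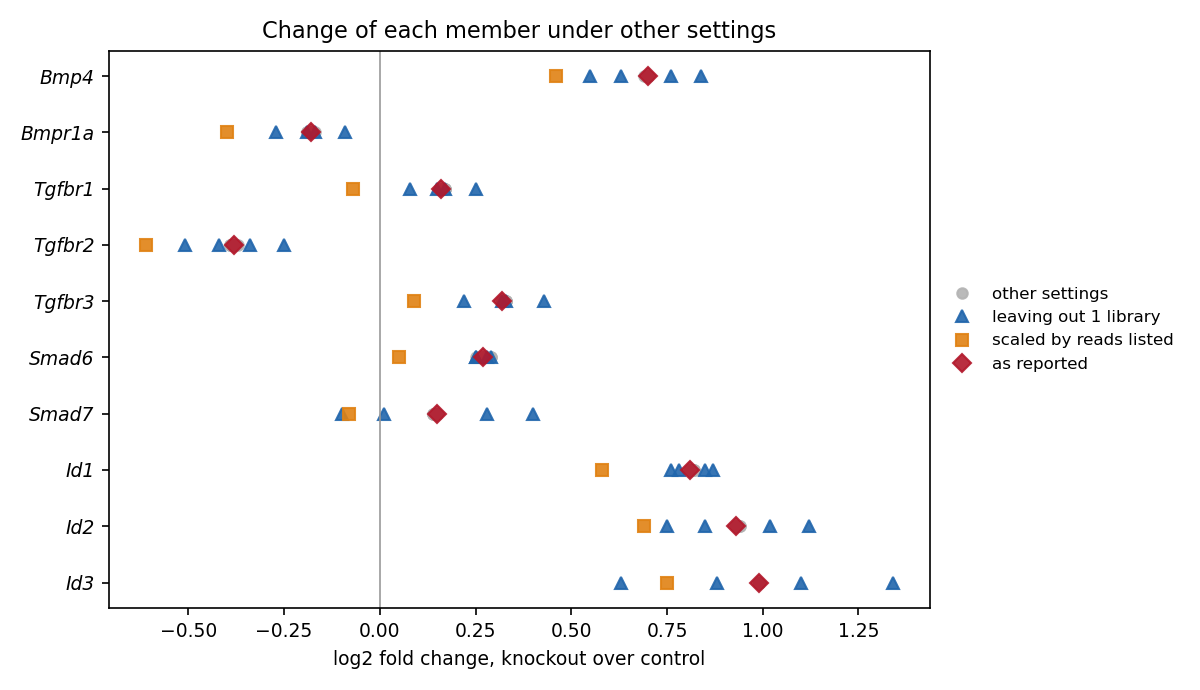
Log2 fold change of each gene, knockout over control, as reported, with 1 library left out, when scaled by the reads listed, and under the other settings tried, most of which lie under the diamonds. Id1, Id2, Id3 and Bmp4 stay above 0 in every setting shown, Smad7 lies below 0 in 2 of them and Tgfbr1 when scaled by the reads listed.

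The rest of the pathway was read from 9 lists by role. They held 93 measured genes of 111, of which the authors' deposited table called 6 higher and 7 lower and limma called 0 higher and 1 lower. Among all genes that table called 3.59% higher and 4.26% lower, and limma called 0.00862%. Their median log2 fold change was -0.01, as for all genes. Groups lay wholly higher for 23 and wholly lower for 27 of the 93 genes, which is close to the shares among all genes given above.

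Membrane and intracellular brakes on the pathway were measured for 15 of 15 genes and had a median log2 fold change of 0.30. The authors' deposited table called 2 of them, both higher, where it called 3.59% of all genes higher, and limma called 0. Both of those genes are known targets of the pathway. Bambi, a pseudoreceptor without a kinase domain that blocks TGF-beta and BMP receptors, had 26.7 and 41.9 RPKM in knockout, against 16.8 and 16 RPKM in control. Its groups did not overlap, knockout 2 was the highest library, as for Id3, and the log2 fold change was 1.01 ± 0.23 (SE), at an adjusted p of 0.173 by limma. Pmepa1, a membrane protein that sequesters Smad2 and Smad3, had 602 and 600.1 RPKM in knockout, against 373 and 318 RPKM in control, with a limma adjusted p of 0.153. Ppp1r15a, which recruits a phosphatase to the TGF-beta type I receptor, had 799 and 885 RPKM in knockout, against 587 and 565 RPKM in control, with a limma adjusted p of 0.195.

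The list of further BMP target genes was measured for 10 of 14 genes and had a median log2 fold change of 0.25. The authors' deposited table called 1 of them, Bambi, where it called 7.84% of all genes, and limma called 0. Groups lay wholly higher in 4 of the 10 and wholly lower in 0, where they did so in 25.0% and 26.2% of all genes. Hes1, a repressor shared with the Notch pathway, had 50 and 78.7 RPKM in knockout, against 40.9 and 35.6 RPKM in control, with a limma adjusted p of 0.228. Hey1, also shared with Notch, had 57.3 and 39.2 RPKM in knockout, against 41.4 and 30.6 RPKM in control, and its groups overlapped.

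TGF-beta target genes went both ways, with a median log2 fold change of -0.11 among 21 measured. The authors' deposited table called 3 of them higher and 4 lower, where it called 3.59% of all genes higher and 4.26% lower. The 3 higher genes were Pmepa1, Timp1 and Junb. Timp1, an inhibitor of metalloproteinases, had 161 and 145 RPKM in knockout, against 104 and 73.2 RPKM in control. Junb, an AP-1 subunit that also responds to many other stimuli, had 1756 and 3026 RPKM in knockout, against 1177 and 1439 RPKM in control. The 4 lower genes encode matrix or contractile proteins. Col1a1, the 1 gene that fell by limma (adjusted p of 0.0385), was 5.59-fold lower in the knockout mean, and Col1a2, the second chain of type I collagen, was 5.87-fold lower with 4.02 and 6.56 RPKM in knockout, against 22.6 and 39.4 RPKM in control. Col1a1 lost its limma call whichever library was omitted, at adjusted p values of 0.0619 to 0.411. Col3a1 had 204 and 96.1 RPKM in knockout, against 294 and 323 RPKM in control, and Acta2, smooth muscle actin, had 148 and 205 RPKM in knockout, against 321 and 474 RPKM in control. Cdkn1a, the cell cycle inhibitor p21 and an abundant member of this list, had 1171 and 1689 RPKM in knockout, against 949.7 and 1144 RPKM in control.

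**Figure D4:**
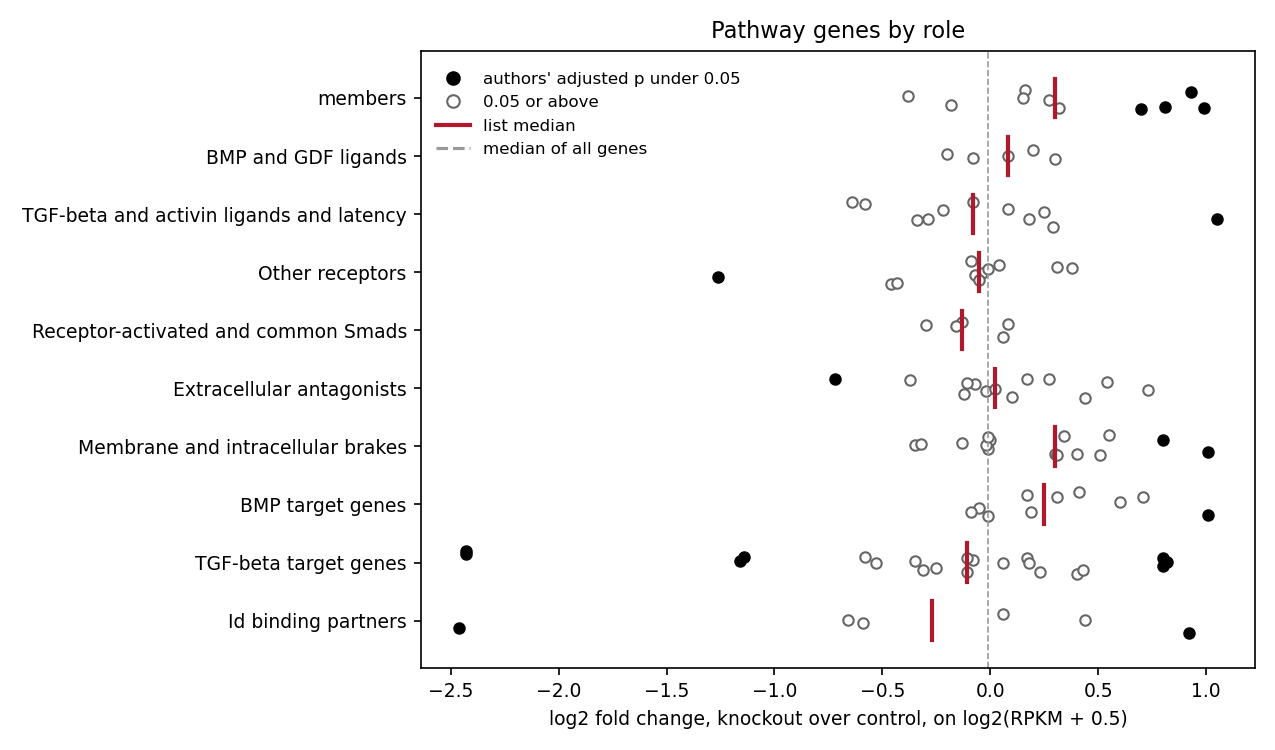
Log2 fold change, knockout over control, of every measured gene on each role list. Filled points were called at 0.05 in the authors' deposited table, red lines are list medians, and the dashed line is the median of all genes, -0.01. The 10 genes described here and the brakes have medians of 0.30, and the TGF-beta target genes spread from -2.43 to 0.82.

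TGF-beta and activin ligands with their latency proteins were measured for 11 of 12 genes, with a median log2 fold change of -0.08. The authors' deposited table called 1 of them, where it called 7.84% of all genes. That gene was Inhbb, the beta B subunit of activin and inhibin, with 11.5 and 10.5 RPKM in knockout, against 5.42 and 4.7 RPKM in control. Its groups were far apart for its level, with a log2 fold change of 1.05 ± 0.17 (SE) and an adjusted p of 0.133 by limma and an adjusted p of 0.000875 in the authors' deposited table. Ltbp4, which anchors latent TGF-beta in the matrix, had 143 and 136 RPKM in knockout 1 and 2, against 136 and 111 RPKM in control 1 and 2, and Thbs1, an activator of latent TGF-beta, had 64.8 and 69.8 RPKM in knockout, against 58.2 and 55.1 RPKM in control. Neither passed limma, with adjusted p values of 0.578 for Ltbp4 and 0.386 for Thbs1.

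The 11 other receptors and co-receptors measured had a median log2 fold change of -0.05, and the 5 receptor-activated and common Smads had a median of -0.13, with 0 limma calls in either list. The authors' deposited table called 1 of the receptors, where it called 7.84% of all genes. This was Hfe2, the BMP co-receptor hemojuvelin of skeletal muscle, called lower. It had 0.153 and 0.3 RPKM in knockout, against 0.383 and 2.88 RPKM in control, and was high in control 2, the library with the highest myofibre marker sum. The part of myofibre RNA in this value was not tested. Rgmb, a BMP co-receptor of the same family, had 52.2 and 42.1 RPKM in knockout, against 56 and 39.5 RPKM in control, and Eng (endoglin) had 13.6 and 14.7 RPKM in knockout, against 15 and 15.3 RPKM in control. Smad4, the common Smad, had 58.5 and 56.1 RPKM in knockout, against 64.6 and 61.1 RPKM in control, and Smad1 had 41.5 and 42.8 RPKM in knockout, against 41.8 and 37.7 RPKM in control.

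Extracellular antagonists were measured for 13 of 17 genes and had a median log2 fold change of 0.02, with 0 called by limma. Groups lay wholly higher for 4 and wholly lower for 4 of the 13, where they did so for 25.0% and 26.2% of all genes. The authors' deposited table called Fstl1, a secreted follistatin-like glycoprotein known to bind BMP4, lower at an adjusted p of 0.00297. Fstl1 had 51.7 and 44.7 RPKM in knockout, against 79.9 and 78.6 RPKM in control, a log2 fold change of -0.72 at an adjusted p of 0.153 by limma. Chrdl2, a chordin-like BMP antagonist, had 456 and 736 RPKM in knockout, against 395 and 306 RPKM in control, without a call in either test. Nbl1, of the DAN family of BMP antagonists, had 212 and 242 RPKM in knockout, against 215 and 233 RPKM in control.

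The partners of Id proteins were measured for 6 of 7 genes. The authors' deposited table called 1 higher and 1 lower, where it called 3.59% and 4.26% of all genes, and limma called 0. Groups did not overlap in any of the 6, with 3 wholly higher and 3 wholly lower, where the groups of 51.2% of all genes did not overlap. The myogenic factors differed in direction: Myod1, the determination factor, was 1.87-fold higher and Myf5, expressed in quiescent and activated stem cells, 1.36-fold higher in the knockout means, and Myog, the differentiation factor, was 5.76-fold lower. Their limma adjusted p values were 0.179, 0.229 and 0.126. Myog had 23.7 and 28.1 RPKM in knockout, against 111 and 188 RPKM in control. limma-voom called Myog lower at an adjusted p of 0.0445, and its adjusted p ran from 0.00243 to 0.411 over the settings tried. Of the myofibre markers, 6 of 7 measured genes were wholly lower in knockout, where 26.2% of all genes were. Acta1 (skeletal muscle actin) was, like Myog, higher in both control libraries, with 36.5 and 31.9 RPKM in knockout, against 144 and 455 RPKM in control, whereas Ckm (muscle creatine kinase) stood out in control 2 alone, with 3.39 and 2.93 RPKM in knockout, against 3.63 and 39.4 RPKM in control. The part of differentiating or myofibre RNA in the Myog difference was not tested. The 3 E protein genes, given after their values were seen, differed in direction: Tcf4 had 15 and 14.9 RPKM in knockout, against 14.7 and 14 RPKM in control, with a limma adjusted p of 0.854. Tcf12 had 3.1 and 3.39 RPKM in knockout, against 5.25 and 5.04 RPKM in control, Tcf3 had 7.41 and 10.5 RPKM in knockout, against 10.7 and 19 RPKM in control, and the limma adjusted p values of Tcf12 and Tcf3 were 0.193 and 0.333.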

How the data were processed

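RNA sequencing libraries of sorted muscle stem cells were compared as knockout against control, 2 libraries each. The submitters' processing notes name mm10 (GRCm38), Trim Galore, STAR, Subread's featureCounts and edgeR, and the sources used here give no versions, settings or gene filter. The deposited values behaved as RPKM computed by the authors: multiplied by exon length, the values of a library were whole multiples of 1 step (100% of values within 0.01 reads). The authors' deposited q-values (adjusted p-values) come from a model that is not stated. Columns starting with Ct were taken as control and those starting with Fl as knockout, with the number as replicate.

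The test was limma 3.58.1 (R 4.3.3) with a mean-variance trend, checked on simulated data. The simulation gave every gene the same dispersion, so it does not show how many true changes the test would find in these libraries. Reads recovered from the RPKM steps were used for limma-voom and for scaling, and the planned edgeR and DESeq2 tests were not run. Library sizes from TMM (trimmed mean of M values) on these reads were 99.53% to 100.6% of the authors' after centring. Replicate numbers are shared by label only.

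Genes were chosen and lists written with earlier results of these data known. The text names the 10 genes, Hr and, from each list, genes with an adjusted p under 0.05 by limma or in the authors' table plus the 2 with the highest mean RPKM. List symbols were matched directly or by RefSeq synonym, and 17 Entrez IDs on more than 1 row were read from the row with the highest mean. The spread between the 2 libraries of a group, which includes counting error, sets the precision. In limma the spread of each gene is drawn toward that of genes with similar levels. The SE, interval and p-value of a gene therefore also rest on the spread of other genes.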

Additional observations from a re-analysis of the deposited data

How the results depend on the processing

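Counts of limma calls at an adjusted p under 0.05 were 0 of the 10 genes, 1 role-list gene and 1 of all genes, and they were the same with pseudocounts of 0.1 and 1, with a mean RPKM of at least 1, and when scaled by reads listed or by median ratios of reads (the last chosen after seeing the data). limma-voom called 11 of all genes (3 higher, 8 lower) and 2 role-list genes (Col1a1 and Myog), both with TMM and with the authors' library sizes, that last one added after seeing the data. With the replicate number as a block, limma called 1004 genes (591 higher, 413 lower), 15 role-list genes, and 4 of the 10 genes, namely Id1, Id2, Id3 and Bmp4 with adjusted p values of 0.0229, 0.0302, 0.0374 and 0.0263. The deviations of same-numbered libraries correlated at 0.414 across 10007 genes, which with 2 numbers does not show that the libraries are paired. Leaving out 1 library in turn gave 0 to 1 calls over all genes, and each time 0 on the role lists and 0 of the 10 genes.

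Directions turned for genes with small changes. Scaled by the reads listed, the log2 fold change was -0.15 for Bmp6, -0.03 for Gdf15, -0.06 for Ltbp4, -0.22 for Nbl1, -0.15 for Smad1, -0.08 for Smad7 and -0.07 for Tgfbr1, and scaled by median ratios it was 0.00 for Rgmb. With 1 library left out, values ranged from -0.03 to 0.19 for Bmp6, -0.09 to 0.50 for Gdf15, -0.08 to 0.11 for Nbl1, -0.25 to 0.24 for Rgmb and -0.10 to 0.40 for Smad7. The planned count tests of edgeR and DESeq2 were not run, and limma-voom was the only test on recovered reads. With 2 libraries a group, a change that limma did not call may still be present, and the intervals beside each receptor and Smad give its possible size.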
